A study of Homo sapiens with 18 samples.

Results

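The genes described here lie side by side on human chromosome 18, from USP14 near the tip of the short arm, across the centromere, to GREB1L on the long arm (hg38, chr18:158383-21526112). Earlier results of these data showed genes of this stretch at lower mRNA levels in 2 knockout clones than in the control line. The values of both clones against control therefore chose these genes, and they are given below as a description, with no p-value for any member against control. A gene was taken as a member if the GENCODE 44 annotation placed it in the interval and its mean over 9 libraries was at least 1 TPM (transcripts per 1000000, a level scaled for gene length). RNMT, METTL4, PSMG2 and symbols that start with ZNF, NDUF, SLC, LAM or TGIF were left out by name. Of the 79 listed genes in the interval, 8 were left out by name and 4 had a mean under 1 TPM (MYOM1, L3MBTL4, ENSG00000267733 and ENSG00000283294). This left 67 members of the 15258 genes in the table. Just inside the minimum lay SNX19P3 with a mean of 1.24 TPM, and just outside lay ENSG00000283294 with a mean of 0.984 TPM. ENSG00000267733 had means of 1.02 TPM in KO1, 1.07 TPM in KO2 and 0.137 TPM in control, so its low control level kept it out. It rests on 17 reads in KO1, 17 in KO2 and 2 in control. The members comprise 40 protein-coding genes, 19 long non-coding RNAs (lncRNAs) and 8 pseudogenes. The short arm holds 65 of them, and the long arm holds 2, ROCK1 and GREB1L.

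The RNA came from MEL624, a human melanoma cell line grown in serum-supplemented medium. KO1 and KO2 are 2 clonal lines with PCIF1 knocked out, and the control line is wild type for PCIF1 and carries a random sgRNA. PCIF1 is the methyltransferase that places the N6-methyl group on an adenosine next to the mRNA cap. Each line has 3 libraries of input mRNA, lettered A to C, which the series calls biological replicates, and the m6A-immunoprecipitated libraries are not analysed here. Each knockout line is 1 clone and there is 1 control line, so a p-value here reflects how libraries of one line vary, and says nothing of how other edited lines would vary. The labels do not say whether the control line is a clone.

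PCIF1 itself had 24.7, 21.97 and 25.3 TPM in the KO1 libraries, 57.96, 64.7 and 58.1 TPM in the KO2 libraries and 55.2, 62.01 and 55.5 TPM in the control libraries. The KO1 libraries lay below all control libraries, with a log2 fold change of -1.26 ± 0.07 (SE) and an exact two-sided permutation p of 0.1, the smallest that 3 against 3 allows. The KO2 libraries overlapped the control libraries, with a log2 fold change of 0.07 ± 0.07 (SE) and an exact permutation p of 0.5. An mRNA level does not show the edit in either line. The libraries held 7848089 to 11393206 reads on the listed genes. Of 14 melanocyte lineage markers, the table listed 4 (MITF, PAX3, ERBB3 and RAB38), and PMEL, MLANA, TYR, DCT and SOX10 are not among the listed genes. The 4 summed to 71.6 to 77.2 TPM in KO1, 94.5 to 103.0 TPM in KO2 and 63.8 to 71.7 TPM in control, so KO2 lay above both other lines. Single genes moved in opposite directions within this sum. On the log2 scale, MITF stood at -0.50 in KO1 and 0.43 in KO2, and PAX3 at 0.92 in KO1 and 0.40 in KO2. ERBB3 stood at -2.16 in KO1 and -1.91 in KO2, and RAB38 at 0.68 in KO1 and 0.83 in KO2. All 8 markers of dedifferentiated melanoma were listed, with summed levels of 1735 to 1881 TPM in KO1, 1630 to 1959 TPM in KO2 and 2003 to 2033 TPM in control. Their single log2 fold changes ran from -2.06 (TGFBI) to 0.16 (JUN) in KO1 and from -2.02 (TGFBI) to 0.19 (JUN) in KO2. Of the markers of other cell types, 3 of 6 fibroblast, 2 of 6 epithelial, 1 of 5 leukocyte and none of 4 endothelial genes are in the table. The epithelial keratins KRT8 and KRT18 summed to 948 to 988 TPM in KO1, 851 to 928 TPM in KO2 and 1061 to 1082 TPM in control. CD68, the leukocyte marker listed, had 129 to 139 TPM in KO1, 134 to 144 TPM in KO2 and 179.8 to 192 TPM in control, so it too was lower in both clones without overlap, while PTPRC, CD3E and CD14 are not among the listed genes. The fibroblast sum was 12.8 to 13.5 TPM in KO1, 10.8 to 11.4 TPM in KO2 and 12.9 to 13.1 TPM in control. Within it LUM had 57 reads in KO1, 26 in KO2 and 1 in control, while PDGFRB and COL1A1 had lower means in both clones. The part of these marker levels in the values of the members was not tested.

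Genes of one chromosome arm share their place on one DNA molecule rather than a task in the cell. This stretch carries the gene for the enzyme that makes thymidylate for DNA synthesis (TYMS), a kinetochore subunit (NDC80), centrosome proteins (CEP192 and CEP76), light chains of non-muscle myosin (MYL12A and MYL12B), a beta-tubulin (TUBB6), tyrosine phosphatases (PTPN2 and PTPRM) and a Src family kinase (YES1). Next to the centromere it holds recently duplicated genes and pseudogenes, such as POTEC and ANKRD30B, whose relatives lie on other chromosomes. As further background, cultured tumour cells of one line often differ from each other in their chromosomes, and a clone carries what its founding cell carried. The files used here hold mRNA values only.

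Across the 67 members the median log2 fold change was -0.48 in KO1 against control and -0.51 in KO2 against control, or 71.7% and 70.3% of the control level. In each clone 60 members lay below control and 7 lay above it. Over all 14512 tested genes the medians were 0.04 in KO1 and 0.01 in KO2. The 165 tested genes of chromosome 18 outside the interval had medians of 0.10 in KO1 and 0.06 in KO2. The 119 tested genes on the short arm of chromosome 20, an arm picked with earlier results known, had medians of -0.36 in KO1 and -0.41 in KO2, so a low arm is not particular to chromosome 18. The members took 0.501% of all reads in KO1, 0.478% in KO2 and 0.711% in control. The medians of the members in single libraries ran from -0.49 to -0.46 in KO1, from -0.54 to -0.49 in KO2 and from -0.03 to 0.03 in control, each set against the control mean, so no knockout library approached a control library. In bulk RNA, less of an mRNA in each cell and fewer cells that carry it cannot be told apart.

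In KO1 against control, limma-trend with Benjamini-Hochberg adjustment called 49 members lower and 2 higher at an adjusted p under 0.05. Among all tested genes it called 14.1% lower and 20.2% higher in KO1. In KO2 against control, 51 members were called lower and 2 higher, where 14.8% of all tested genes were called lower and 15.6% higher. All KO1 libraries lay below all control libraries in 49 members, beside 20.7% of all tested genes, and all KO2 libraries did so in 55 members, beside 21.4%. The members were chosen on these contrasts, so nothing is read from the counts. The 8 expressed genes left out by name had medians of -0.45 in KO1 and -0.42 in KO2.

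**Figure D1:**
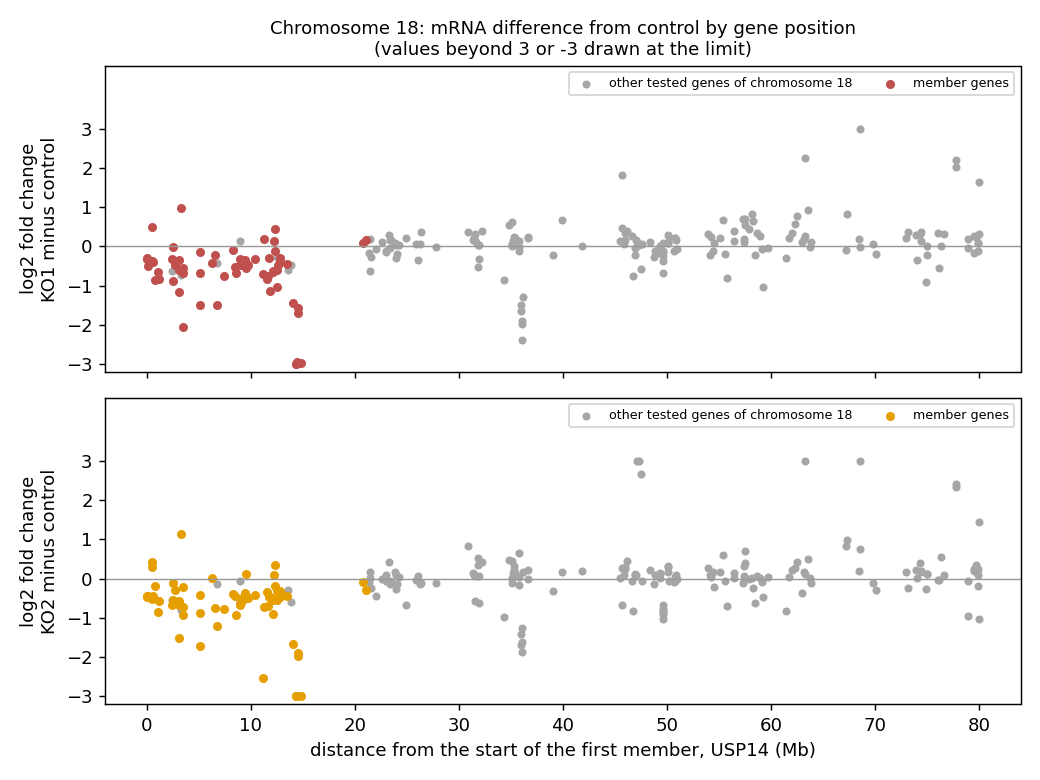
Log2 fold change of every tested gene of chromosome 18 by distance of its start from that of USP14 in megabases (Mb), KO1 minus control above and KO2 minus control below. Coloured points are the 67 members and grey points the other tested genes, the 8 left out by name included. Most members lie below 0 up to the centromere, the lowest lie next to it (values beyond -3 are drawn at -3), and the 2 members on the long arm lie near 0.

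The members along the chromosome fall into 3 blocks, which were set after the values were seen. The arm block runs from USP14 to FAM210A and holds 58 members, with medians of -0.46 in KO1 and -0.48 in KO2. The last 7 members before the centromere, from ANKRD20A5P to LINC01444, had fitted medians of -2.96 in KO1 and -3.60 in KO2, which are the values of SNX19P3. POTEC, CXADRP3 and SNX19P3 had means under 1 TPM in each clone. They passed the minimum only through control, at means of 47.5, 26.6 and 3.02 TPM. The depth of this block is thus partly set by the filter, and nothing is read from it. The 2 long-arm members lie beyond a gap of 5.97 Mb without a member. Running medians of 11 neighbouring tested genes were also taken along the chromosome. In windows centred beyond the interval, on the long arm, they ran from -1.28 to 0.43 in KO1 and from -0.67 to 0.50 in KO2. Inside the interval they ran from -1.57 to -0.27 in KO1 and from -1.91 to -0.28 in KO2. Low runs were thus also found on the long arm, but their depth was not shared by the clones. In the long-arm windows at -1.28 in KO1, KO2 stood at -0.31 to -0.17. In those at -0.67 in KO2, KO1 stood at -0.15 to 0.02. Of the 36 protein-coding genes of the arm block, 30 in KO1 and 32 in KO2 had a log2 fold change between -1 and -0.2. Their medians were -0.40 in KO1 and -0.47 in KO2, with interquartile ranges of -0.55 to -0.31 in KO1 and -0.58 to -0.42 in KO2. Along the 58 genes of the arm block, Spearman's correlation of the fold change with start position was 0.00261 in KO1 and 0.0585 in KO2, and with mean level 0.141 in KO1 and -0.146 in KO2. Along its 36 protein-coding genes it was -0.256 in KO1 and 0.117 in KO2 with start position. With mean level it was -0.211 in KO1 and -0.289 in KO2 along the same 36. These correlations are across genes of the same libraries, which are not independent, and are given as a description.

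**Figure D2:**
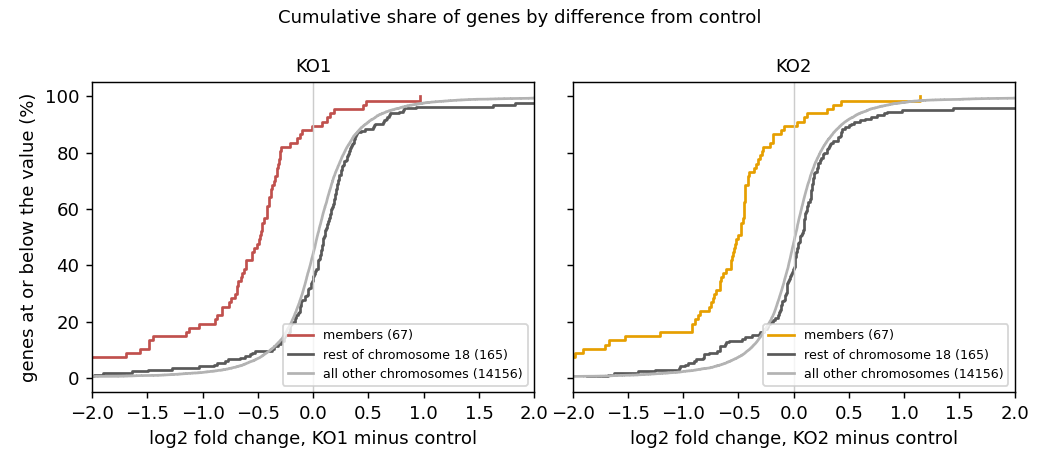
Cumulative share of genes (percent) at or below each log2 fold change, KO1 minus control at left and KO2 minus control at right. The coloured curve of the 67 members lies left of the curves of the 165 tested genes of chromosome 18 outside the interval and of the 14156 genes on all other chromosomes, and 89.6% of members lie below 0 in each panel.

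Among the genes of metabolism and mitochondria, TYMS, which makes thymidylate for DNA synthesis, had 603, 634 and 625 TPM in the KO1 libraries, 554, 569.5 and 561 TPM in the KO2 libraries and 797, 802 and 822 TPM in the control libraries. All knockout libraries lay below all control libraries, and the KO2 libraries lay below the KO1 libraries. Its log2 fold change was -0.38 ± 0.03 for KO1 and -0.52 ± 0.03 for KO2 (SE). AFG3L2, a protease subunit of the mitochondrial inner membrane, had 161, 164 and 162 TPM in the KO1 libraries, 172, 170.0 and 169.6 TPM in the KO2 libraries and 253, 245 and 252 TPM in the control libraries. The groups of knockout and control libraries did not overlap, with log2 fold changes of -0.62 ± 0.03 for KO1 and -0.55 ± 0.03 for KO2. FAM210A, a mitochondrial protein, had log2 fold changes of -0.44 for KO1 and -0.45 for KO2. PRELID3A, a lipid carrier of the mitochondrial intermembrane space, had 15.2, 13.2 and 12.8 TPM in the KO1 libraries, 11.6, 14.6 and 13.9 TPM in the KO2 libraries and 13.2, 11.5 and 12.8 TPM in the control libraries. Its libraries overlapped between all 3 lines, with log2 fold changes of 0.13 ± 0.11 for KO1 and 0.09 ± 0.11 for KO2.

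ENOSF1 ran the other way. This gene encodes a mitochondrial enolase-like protein, and its 3' end overlaps that of TYMS by 3261 bases on the opposite strand. It had 50.5, 49.5 and 52.4 TPM in the KO1 libraries, 49.3, 49.1 and 48.8 TPM in the KO2 libraries and 34.7, 36.5 and 37.98 TPM in the control libraries. Every knockout library lay above every control library, with log2 fold changes of 0.48 ± 0.05 for KO1 and 0.43 ± 0.05 for KO2. TYMSOS, a lncRNA on the strand opposite to TYMS at its other end, had 9.93, 5.396 and 9.21 TPM in the KO1 libraries, 11.5, 15.9 and 10.9 TPM in the KO2 libraries and 10.8, 10.3 and 9.53 TPM in the control libraries. Its KO1 and control libraries overlapped, and all its KO2 libraries lay above all its control libraries. The libraries were made with a directional kit, but whether reads were counted by strand is not stated, so reads of TYMS, ENOSF1 and TYMSOS in their shared bases may not have been told apart.

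All 7 members with roles in cell division and the centrosome had lower means in both clones, with log2 fold changes from -0.76 to -0.12 in KO1 and from -0.90 to -0.19 in KO2. NDC80, the kinetochore subunit that holds microtubules, had 107, 109 and 106 TPM in the KO1 libraries, 87.6, 81.95 and 84.3 TPM in the KO2 libraries and 143, 134 and 127 TPM in the control libraries. Both clones lay below control, and KO2 lay below KO1. TUBB6, a beta-tubulin, had 543, 505 and 499.5 TPM in the KO1 libraries, 426, 447 and 424 TPM in the KO2 libraries and 781, 803 and 828 TPM in the control libraries, in the same order of lines. CHMP1B, an ESCRT-III subunit that acts in membrane scission at the end of division, had 105, 102 and 103 TPM in the KO1 libraries, 113, 101 and 111 TPM in the KO2 libraries and 172, 178 and 176 TPM in the control libraries. Its knockout libraries lay well below control, and those of KO1 and KO2 overlapped. CEP76, which limits centriole duplication, had log2 fold changes of -0.61 for KO1 and -0.54 for KO2, and CEP192, which recruits pericentriolar material, had -0.30 for KO1 and -0.32 for KO2. SEH1L, a subunit of the nuclear pore, had -0.40 for KO1 and -0.48 for KO2. SPIRE1, an actin nucleator, had the smallest differences of the 7, at 64.2, 71.2 and 67.8 TPM in the KO1 libraries, 63.9, 64.6 and 64.7 TPM in the KO2 libraries and 73.3, 75.9 and 70.9 TPM in the control libraries. Its KO2 libraries lay below all control libraries, and KO1 overlapped control. TUBB6 and AFG3L2 overlap on opposite strands, and CHMP1B lies within GNAL on the same strand, so their reads may be shared.

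**Figure D3:**
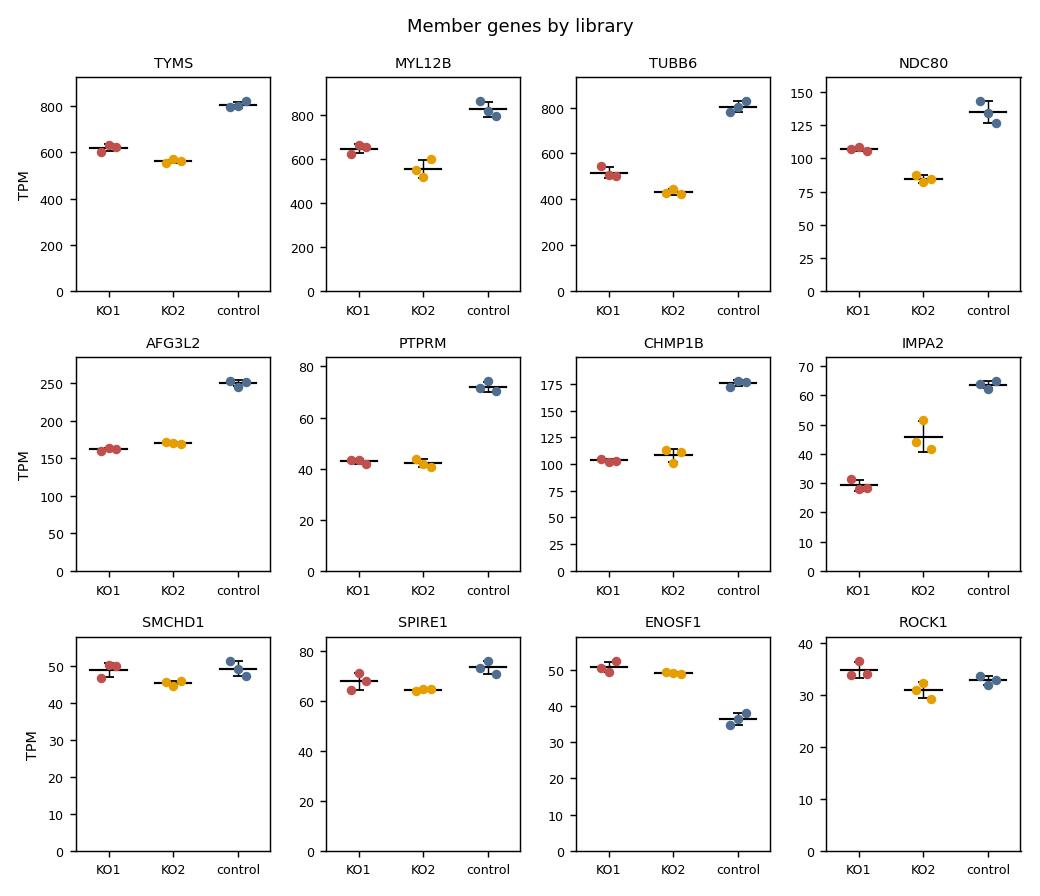
Level in TPM of 12 members in each library (points), with the mean (wide bar) and SD (whiskers) of the 3 libraries of KO1, KO2 and control. All axes start at 0. TYMS, MYL12B, TUBB6, NDC80, AFG3L2, PTPRM, CHMP1B and IMPA2 are lower in both clones, SMCHD1, SPIRE1 and ROCK1 lie close to control, and ENOSF1 is higher.

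Signalling genes followed the arm block. PTPRM, a receptor tyrosine phosphatase of cell contacts, had 43.2, 43.6 and 41.8 TPM in the KO1 libraries, 43.8, 41.99 and 40.8 TPM in the KO2 libraries and 71.4, 74.3 and 70.2 TPM in the control libraries. All its knockout libraries lay below all its control libraries, with log2 fold changes of -0.75 ± 0.05 for KO1 and -0.77 ± 0.05 for KO2. PTPN2, the phosphatase that acts on JAK and STAT proteins, had -0.48 for KO1 and -0.44 for KO2, and YES1, a Src family kinase, had -0.40 for KO1 and -0.44 for KO2. PPP4R1, a regulatory subunit of protein phosphatase 4, had -0.34 for KO1 and -0.36 for KO2, and MPPE1, a metallophosphoesterase that trims GPI anchors, had -0.29 for KO1 and -0.46 for KO2. IMPA2, an inositol monophosphatase, had 31.5, 27.9 and 28.2 TPM in the KO1 libraries, 44.2, 51.8 and 41.8 TPM in the KO2 libraries and 63.9, 62.3 and 64.9 TPM in the control libraries, so the 3 lines stood apart without overlap and KO1 was lowest. GNAL, a stimulatory G protein alpha subunit, had -0.82 for KO1 and -0.34 for KO2, and ARHGAP28, a GTPase-activating protein, had -0.21 for KO1 and -0.75 for KO2, both at means under 7 TPM in every line.

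The myosin light chain genes MYL12A and MYL12B stand next to each other. MYL12B had 626, 667 and 654 TPM in the KO1 libraries, 549.7, 522 and 602 TPM in the KO2 libraries and 865, 822 and 796 TPM in the control libraries. MYL12A had 188, 192 and 189 TPM in the KO1 libraries, 176, 175 and 194 TPM in the KO2 libraries and 299, 290.5 and 277 TPM in the control libraries. Both clones lay below control without overlap for each gene, with log2 fold changes of -0.35 for KO1 and -0.57 for KO2 for MYL12B and -0.61 for KO1 and -0.67 for KO2 for MYL12A. The pair is nearly identical in coding sequence, so how the authors' counting split reads between the 2 genes is uncertain. MTCL1, which crosslinks microtubules, had log2 fold changes of -0.68 for KO1 and -0.92 for KO2, and EMILIN2, a protein of the extracellular matrix, had -0.42 for KO1 and -0.29 for KO2.

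The 6 members grouped under membranes, lipids and traffic, with the secreted protein TWSG1 placed among them, were all lower in both clones. Their log2 fold changes lay between -0.53 and -0.33 in KO1 and between -0.61 and -0.42 in KO2. They are VAPA, which tethers the endoplasmic reticulum to other membranes, LPIN2, a phosphatidate phosphatase, NAPG, which helps to disassemble SNARE complexes, the small GTPases RAB12 and RAB31, and TWSG1, a secreted modulator of BMP signalling. VAPA had 38.4, 41.4 and 39.1 TPM in the KO1 libraries, 36.3, 41.3 and 37.7 TPM in the KO2 libraries and 58.7, 54.2 and 50.99 TPM in the control libraries, with no overlap between either clone and control. LPIN2 had 79.97, 79.8 and 84.7 TPM in the KO1 libraries, 72.2, 78.2 and 70.7 TPM in the KO2 libraries and 114, 112 and 111 TPM in the control libraries, also without overlap.

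Among regulators of genes, RNA and protein turnover, USP14, the deubiquitinase of the proteasome and the first member by position, had 171, 181 and 174 TPM in the KO1 libraries, 164, 151 and 162 TPM in the KO2 libraries and 228, 215 and 210.3 TPM in the control libraries. Its knockout libraries lay below control, at log2 fold changes of -0.31 for KO1 and -0.45 for KO2. THOC1, a subunit of the THO complex for mRNA export, had -0.30 for KO1 and -0.48 for KO2, and ANKRD12, an ankyrin-repeat co-regulator, had -0.32 for KO1 and -0.66 for KO2. SMCHD1, which takes part in silencing of the inactive X chromosome, lay close to control inside the arm, with 46.9, 50.3 and 49.98 TPM in the KO1 libraries, 45.8, 44.8 and 45.95 TPM in the KO2 libraries and 51.5, 49.3 and 47.4 TPM in the control libraries. KO1 overlapped control, KO2 lay below the lowest control library, and the log2 fold changes were -0.01 ± 0.05 for KO1 and -0.12 ± 0.05 for KO2. NDC80 on its one side and EMILIN2 on its other side were lower.

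The 22 lncRNAs and pseudogenes of the arm block were more scattered than its protein-coding genes, with SDs of log2 fold change of 0.65 in KO1 and 0.78 in KO2 against 0.28 in KO1 and 0.25 in KO2 for the protein-coding genes. They also have lower levels, and many have few reads. ENSG00000265257 was the most abundant, with 338, 330.5 and 328 TPM in the KO1 libraries, 299, 281 and 312 TPM in the KO2 libraries and 472, 454 and 459 TPM in the control libraries, but it overlaps NDUFV2 and ANKRD12 on the same strand, so its reads may be theirs. LINC00526 had 2.18, 2.26 and 2.12 TPM in the KO1 libraries, 2.16, 1.75 and 1.74 TPM in the KO2 libraries and 6.12, 6.72 and 5.58 TPM in the control libraries. All its knockout libraries lay far below its control libraries, with log2 fold changes of -1.49 ± 0.15 for KO1 and -1.71 ± 0.15 for KO2. ENSG00000267051 had 6.04, 3.100 and 7.76 TPM in the KO1 libraries, 2.56, 0.681 and 1.86 TPM in the KO2 libraries and 5.82, 10.4 and 10.5 TPM in the control libraries. Its KO2 libraries lay below all others, while KO1 overlapped control, on 35 reads in KO1, 10 in KO2 and 57 in control. GAPLINC, a lncRNA described in gastric cancer, had the highest fold change of all members, at 5.42, 5.34 and 7.08 TPM in the KO1 libraries, 4.24, 7.43 and 9.46 TPM in the KO2 libraries and 2.14, 2.87 and 4.47 TPM in the control libraries. Its KO1 libraries lay above all control libraries and its KO2 libraries overlapped them, with log2 fold changes of 0.97 ± 0.32 for KO1 and 1.15 ± 0.32 for KO2. ENSG00000267199, which overlaps SPIRE1 on the opposite strand, had means under 2 TPM and log2 fold changes of 0.45 ± 0.22 for KO1 and 0.36 ± 0.22 for KO2.

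The 7 members next to the centromere took 0.000810% of reads in KO1, 0.000671% in KO2 and 0.0142% in control. POTEC, a member of the primate POTE ankyrin family, had 0.463, 0.0624 and 0.286 TPM in the KO1 libraries, 0.514, 0.269 and 0.359 TPM in the KO2 libraries and 51.98, 46.5 and 43.98 TPM in the control libraries. That rests on 14 reads in KO1, 20 reads in KO2 and 2812 reads in control, each summed over 3 libraries. Its log2 fold change was -7.87 ± 0.60 in KO1 and -7.01 ± 0.60 in KO2 (SE), values that depend on the small prior count in the deposited table. CXADRP3, a processed pseudogene of the virus receptor gene CXADR, had 1, 1 and 2 reads in the KO1 libraries, 1, 1 and 0 reads in the KO2 libraries and 184, 138 and 109 reads in the control libraries, so nearly all its reads came from the control line. Its log2 fold change in KO1 was -6.48 ± 0.59, which depends on the same prior. Its read rate in KO2 was 200.1-fold lower than in control, with an exact 95% counting interval of 55.1 to 1657 that covers counting error only.

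LINC01444, a lncRNA, had 3.96, 4.200 and 2.101 TPM in the KO1 libraries, 1.55, 2.45 and 1.65 TPM in the KO2 libraries and 21.96, 29.7 and 25.6 TPM in the control libraries. All its knockout libraries lay far below its control libraries. SNX19P3, a processed pseudogene, had 10 reads in KO1, 5 reads in KO2 and 73 reads in control. ANKRD30B had 2.29, 2.15 and 1.12 TPM in the KO1 libraries, 1.605, 1.15 and 1.897 TPM in the KO2 libraries and 5.42, 6.42 and 5.34 TPM in the control libraries. GTF2IP8, a pseudogene of the transcription factor gene GTF2I, had 4.96, 3.71 and 3.48 TPM in the KO1 libraries, 4.23, 2.498 and 2.57 TPM in the KO2 libraries and 14.4, 10.9 and 10.7 TPM in the control libraries, from 18 reads in KO1, 13 reads in KO2 and 58 reads in control. ANKRD20A5P, the first of the 7 by position, had 1.16, 1.55 and 1.18 TPM in the KO1 libraries, 0.895, 1.24 and 1.19 TPM in the KO2 libraries and 3.97, 2.79 and 3.85 TPM in the control libraries. In each of these 5 genes both clones lay below control without overlap, with log2 fold changes from -2.97 to -1.45 in KO1 and from -3.79 to -1.67 in KO2.

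**Figure D4:**
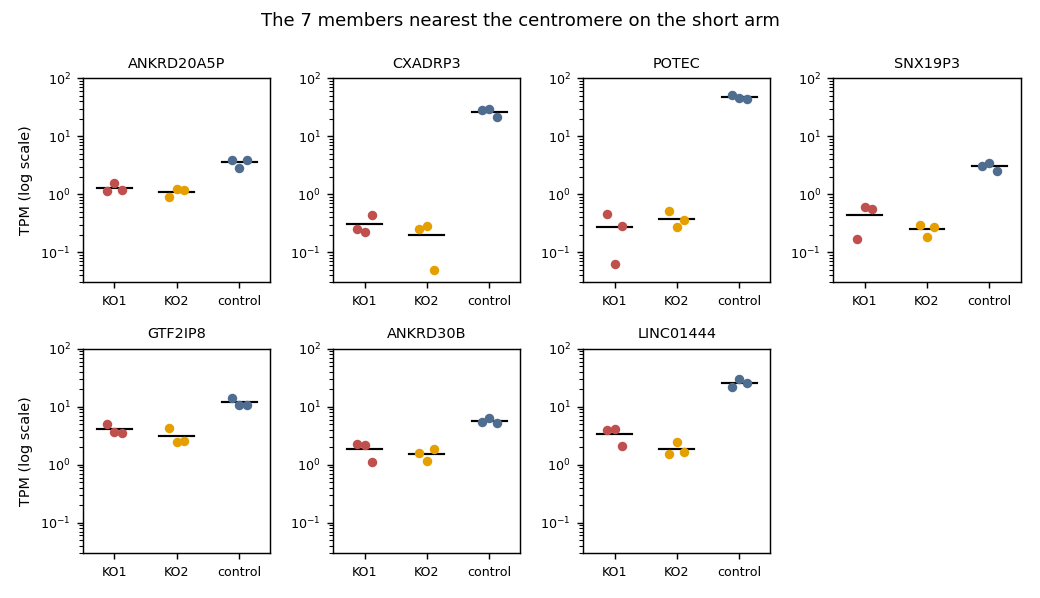
Level in TPM on a log scale of the 7 short-arm members nearest the centromere, in each library (points) with the mean of 3 libraries (bar), for KO1, KO2 and control. POTEC and CXADRP3 show the widest gap between the clones and control, and ANKRD20A5P one of the narrowest.

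Relatives of these genes on other chromosomes, picked after the values were seen, did not all stand where they stood. On the log2 fold scale, POTEF, POTEI, POTEE and POTEH stood at 0.42 ± 0.21, 0.17 ± 0.14, 0.50 ± 0.24 and 1.34 ± 0.53 in KO1 (SE). In KO2 they stood at 0.21 ± 0.21, 0.23 ± 0.14, 0.44 ± 0.24 and 0.97 ± 0.53. POTEH rests on 25 reads in KO1, 20 in KO2 and 10 in control. ANKRD30A on chromosome 10 had 0.50 in KO1 and 0.64 in KO2. CXADR on chromosome 21, the parent of CXADRP3, had 2 reads in KO1, 20 reads in KO2 and 157 reads in control, so it was also low in both clones. How reads were split between these near-identical copies is uncertain.

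On the long arm ROCK1, a kinase that acts on myosin II, had 33.8, 36.5 and 33.9 TPM in the KO1 libraries, 30.97, 32.3 and 29.2 TPM in the KO2 libraries and 33.7, 31.9 and 32.8 TPM in the control libraries. The 3 lines were close, with log2 fold changes of 0.08 ± 0.06 for KO1 and -0.09 ± 0.06 for KO2. GREB1L, the last member, had 2.96, 3.76 and 2.97 TPM in the KO1 libraries, 2.22, 2.58 and 2.34 TPM in the KO2 libraries and 2.95, 3.16 and 2.58 TPM in the control libraries, and its log2 fold changes were 0.15 ± 0.16 for KO1 and -0.28 ± 0.16 for KO2. Just outside the end of the interval, beyond GREB1L, come ESCO1 with -0.16 in KO1 and -0.08 in KO2, SNRPD1 with 0.19 in KO1 and 0.17 in KO2, ABHD3 with -0.62 in KO1 and 0.01 in KO2, and MIB1 with -0.27 in KO1 and -0.25 in KO2, all log2 fold changes. ABHD3 was thus low in KO1, and MIB1 had lower means in both clones.

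The comparison of the clones with each other was not used to choose the genes. Over the 67 members the median log2 difference of KO2 minus KO1 was -0.07, and over all tested genes it was -0.04. Limma-trend with Benjamini-Hochberg adjustment called 15 members lower and 5 higher in KO2 than in KO1, or 29.9% of members. Among all tested genes 28.7% were called, with 16.9% lower and 11.8% higher, so the share of members called lies near that of all genes. With libraries centred on their own medians, 6 members were called lower in KO2, and TYMS and USP14 were among those no longer called, at limma adjusted p = 0.0612 and 0.171.

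IMPA2 had the clearest difference between the clones, with a log2 difference of 0.65 ± 0.08 (SE, limma adjusted p = 0.000293), all 3 KO2 libraries lying above all 3 KO1 libraries. ENSG00000266401, a lncRNA, was also higher in KO2 than in KO1, by 1.14 ± 0.18 (limma adjusted p = 0.00155), with 4.69, 4.43 and 6.11 TPM in KO2 and 2.54, 2.44 and 1.93 TPM in KO1. NDC80 was lower in KO2, with a log2 difference of -0.34 ± 0.05 (limma adjusted p = 0.000686). TUBB6 had a difference of -0.25 ± 0.04 (limma adjusted p = 0.00148), and MYL12B one of -0.22 ± 0.05 (limma adjusted p = 0.0125). In these 3 genes all KO2 libraries lay below all KO1 libraries. ANKRD12 was lower in KO2 too, with 16.6, 17.5 and 15.9 TPM in KO2 and 19.8, 21.3 and 22.5 TPM in KO1 (-0.35 ± 0.08, limma adjusted p = 0.00769). ENSG00000273119, a lncRNA, had 4.68, 4.05 and 4.17 TPM in KO2 and 8.17, 9.53 and 6.800 TPM in KO1, a difference of -0.91 ± 0.18 (limma adjusted p = 0.00478). Both lncRNAs rest on few reads, ENSG00000266401 on 56 in KO2 and 26 in KO1, and ENSG00000273119 on 22 in KO2 and 45 in KO1. These 7 calls held in each of the 16 alternatives run for them, with limma adjusted p up to 0.0488.

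**Figure D5:**
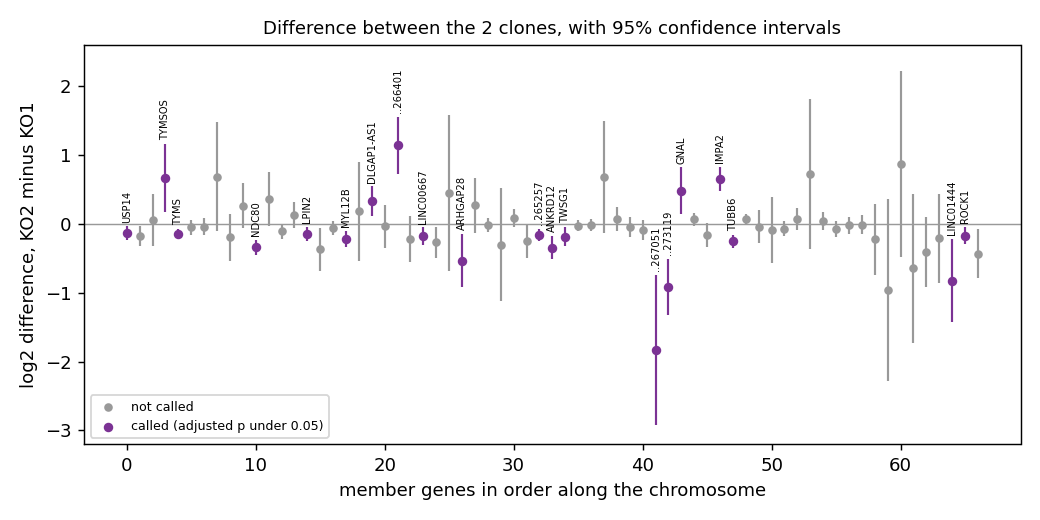
Log2 difference of KO2 minus KO1 for the 67 members in order along the chromosome, with 95% confidence intervals from limma-trend (lines). Purple points are the 20 members called at an adjusted p under 0.05, and grey points are the rest. The called members are spread along the arm, and IMPA2 and ENSG00000266401 stand above 0 while ENSG00000267051 stands lowest.

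For the other 47 members the difference between the clones did not pass the threshold, which does not show that they were equal. The intervals bound it for the abundant ones: the 95% confidence interval of KO2 minus KO1 was -0.13 to 0.08 for PTPRM, -0.11 to 0.07 for PPP4R1, 0.00 to 0.14 for AFG3L2 and -0.04 to 0.16 for CHMP1B. For POTEC it was -0.49 to 2.21, too wide to order the clones at this depth.

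Proteins made from members work with partners whose genes lie elsewhere, and 14 lists of such partners were examined, with 151 of 158 genes tested and none in the interval. In KO1 against control 31 partners were called higher and 13 lower, or 29.1% beside 34.3% of all tested genes. In KO2 against control 23 were called higher and 26 lower, or 32.5% beside 30.4%. Between the clones 22 were called higher and 34 lower in KO2 than in KO1, or 37.1% beside 28.7%. The median log2 fold change of all partners was 0.05 in KO1 and 0.01 in KO2, close to those of all tested genes. No list had a median as low as that of the members, which were chosen for low values, so nothing is read from that gap. Partners lie on several chromosomes, MAIP1 for example on chromosome 2 and ZWINT on chromosome 10. Whether a partner moved with a member or with its own place in the genome was not tested.

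Of 12 genes of the thymidylate and folate cycle, 5 were called higher and 1 lower in each clone. DTYMK, the kinase that acts on the product of TYMS, rose in both clones, with 192 ± 2.56 TPM in KO1, 186 ± 6.54 TPM in KO2 and 121 ± 8.96 TPM in control (SD, n = 3 each), by 0.67 for KO1 and 0.63 for KO2 (adjusted p = 1.25e-05 and 1.65e-05, limma-trend). Of 9 kinetochore partners of NDC80, 2 were called in KO1, both higher, and 3 in KO2, 1 higher and 2 lower. ZWINT, an outer kinetochore protein, rose by 0.30 for KO1 and 0.62 for KO2 (adjusted p = 0.000584 and 4.7e-06, limma-trend). Of the 9 nuclear pore partners of SEH1L, 1 was called higher in each clone, in KO2 SEC13, at 106 ± 2.501 TPM in KO1, 159 ± 5.74 TPM in KO2 and 105 ± 1.34 TPM in control (SD, n = 3 each), with 0.60 (limma adjusted p = 2.77e-06).

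Of 9 partners of THOC1 in mRNA export, 2 were called higher and 2 lower in KO1, and 3 higher and 1 lower in KO2. THOC6 fell by 0.38 for KO1 and 0.25 for KO2 on the log2 scale (adjusted p = 0.000109 and 0.0015, limma-trend). Of 13 genes around ROCK1 and myosin II, 4 were called higher and 2 lower in KO1, and 2 higher and 4 lower in KO2. The small GTPase RHOB had 3.51 ± 0.805 TPM in KO1, 9.74 ± 0.997 TPM in KO2 and 13.5 ± 0.402 TPM in control (SD, n = 3 each), and fell by 1.97 for KO1 and 0.47 for KO2 (adjusted p = 1.65e-05 and 0.0477, limma-trend). Its call in KO2 was lost in 9 of 16 alternatives, with a limma adjusted p of up to 0.145. LIMK1, a kinase that acts on cofilin, fell by 0.24 for KO1 and 0.50 for KO2 (adjusted p = 0.0266 and 0.000464, limma-trend). Its call in KO1 was lost in 4 of 16 alternatives, with a limma adjusted p of up to 0.0971. Of 11 genes of JAK-STAT signalling near PTPN2, 4 were called higher and 1 lower in KO1, and 2 higher and 4 lower in KO2. STAT5B fell by 0.56 for KO1 and 0.48 for KO2 (adjusted p = 0.000224 and 0.000566, limma-trend).

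Of 11 mitochondrial quality control genes beside AFG3L2, 2 were called higher and 2 lower in KO1, and 3 were called in KO2, all higher. MAIP1, which binds the AFG3L2 protease, rose by 0.55 for KO1 and 0.67 for KO2 (adjusted p = 0.000556 and 0.000148, limma-trend). Of 13 ESCRT-III genes beside CHMP1B, 2 were called higher and 2 lower in KO1, and 1 higher and 4 lower in KO2, among them CHMP2A, which fell by 0.22 for KO1 and 0.20 for KO2 (adjusted p = 0.00583 and 0.0101, limma-trend). Of 13 contact-site and lipin genes beside VAPA and LPIN2, 1 was called in KO1, higher, and 3 in KO2, 2 higher and 1 lower. VAPB, the paralog of VAPA, rose by 0.35 for KO1 and 0.31 for KO2 (adjusted p = 0.000637 and 0.00122, limma-trend). Of 10 ubiquitin receptors and deubiquitinases beside USP14, 1 was called in KO1 and 3 in KO2, all lower. UBQLN2, a ubiquitin receptor, had 49.6 ± 0.539 TPM in KO1, 18.02 ± 0.803 TPM in KO2 and 44.9 ± 1.11 TPM in control (SD, n = 3 each), and fell by 1.32 in KO2 (limma adjusted p = 1.12e-07).

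Of 14 genes of the exocyst and its GTPases, 2 were called higher and 1 lower in KO1, and 2 higher and 3 lower in KO2. The GTPase RALA rose by 0.44 in KO2 (limma adjusted p = 0.000714) and stood at 0.12 in KO1 (limma adjusted p = 0.176). Of 10 silencing genes beside SMCHD1, 4 were called in KO1, all higher, and 1 in KO2, lower. CBX5, a heterochromatin protein, had 63.6 ± 1.97 TPM in KO1, 47.9 ± 0.883 TPM in KO2 and 47.6 ± 2.36 TPM in control (SD, n = 3 each), and rose by 0.42 in KO1 (limma adjusted p = 0.000171). Of 12 centriole genes beside CEP192 and CEP76, 2 were called higher and 1 lower in KO1, and 1 was called in KO2, lower. Of 5 Src family genes beside YES1, none was called in KO1 by limma-trend or limma-voom, and 2 were higher at an unadjusted p under 0.05. In KO2, 1 was called higher and 1 lower, the lower being SRC, which fell by 0.38 (limma adjusted p = 0.0014) and stood at -0.05 in KO1 (limma adjusted p = 0.58). Where limma-trend called no gene of a list in one direction against control, limma-voom called 1 kinetochore and 2 nuclear pore partners lower in KO1 and 1 centriole gene higher in KO2, and none for the other such lists. It called 4 ubiquitin receptors or deubiquitinases lower in KO1, against 1 by limma-trend. At an unadjusted p under 0.05, limma-trend held in those directions 1 centriole gene in KO2 and, in KO1, 1 of the ubiquitin genes and the 2 Src family genes given above.

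PCIF1 acts on transcripts that begin with an adenosine, so the first base of the members is of interest. Promoter windows from RefSeq (GRCh38.p14) were found by symbol and chromosome for 45 of 67 members and for 10317 of 14512 tested genes. The annotated first base was A in 48.9% of these members and in 45.1% of these tested genes. Members that start with A stood at a median of -0.36 for KO1 and -0.41 for KO2, and those that start with another base at -0.51 for KO1 and -0.54 for KO2, all log2 fold changes against control. Members were chosen for low values in these contrasts, so medians below 0 for both kinds were set by that choice. Over all tested genes with a window, those that start with A had medians of 0.04 for KO1 and 0.005 for KO2. Those that start with another base had 0.03 for KO1 and 0.007 for KO2. Starts in use in MEL624 were not measured here.

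The sequences below run from 25 bases before the annotated start to 5 bases from it, on the strand of the gene, with the first transcribed base in capitals. They are shown for POTEC, which was low in both clones, for the abundant TYMS, MYL12B and TUBB6, for ENOSF1, which was higher in both clones, for ROCK1 on the long arm, and for CHMP1B, whose first base is not A.
POTEC (GRCh38.p14, chr18:14543596-14543625, minus strand): ccccgcacgcgcgccccgcacgcgcAtaac
TYMS (GRCh38.p14, chr18:657628-657657, plus strand): gcggaaggggtcctgccaccgcgccActtg
MYL12B (GRCh38.p14, chr18:3262108-3262137, plus strand): ggtgcgccttccgctccgccccttcAggca
TUBB6 (GRCh38.p14, chr18:12307644-12307673, plus strand): cattttcggatccagccctgtagtcActtt
CHMP1B (GRCh38.p14, chr18:11851388-11851417, plus strand): tcacagtagaaacaggaagtgggacCaaaa
ENOSF1 (GRCh38.p14, chr18:712626-712655, minus strand): ccgccgcgcgctcgggatcccgaccAgtcc
ROCK1 (GRCh38.p14, chr18:21111809-21111838, minus strand): ccgagcgtccgcgccccgcatgcgcAgtct
The full windows, from 250 bases before to 50 bases after the start, were searched on both strands for 5 motifs. The CCAAT box (CCAAT) was in 15.6% of members and 37.5% of tested genes, the GC box (GGGCGG) in 66.7% of members and 70.3% of tested genes, and the TATA box (TATAAA) in 2.22% of members and 5.41% of tested genes. The cyclic AMP response element (TGACGTCA) was in 6.67% of members and 3.33% of tested genes. The nuclear respiratory factor motif was in 11.1% of members and 12.3% of tested genes. The median GC content of the windows was 69.7% in members and 65.3% in tested genes. These are matches of letters and say nothing of a factor.

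In 3 places a member on the minus strand and one on the plus strand start head to head within 1000 bases, and the 2 shortest stretches between such starts are given here on the plus strand of hg38, with the first and last letters, where transcription of the left and the right gene begins, in capitals. The left gene is transcribed from the other strand, so its RNA begins with the complement of the capital shown, A for THOC1 and G for ENSG00000272688.
THOC1 and THOC1-DT (hg38, chr18:268050-268113, plus strand): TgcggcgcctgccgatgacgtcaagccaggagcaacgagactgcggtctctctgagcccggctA
ENSG00000272688 and MYL12A (hg38, chr18:3247433-3247481, plus strand): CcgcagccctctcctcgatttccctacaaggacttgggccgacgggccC
THOC1 had log2 fold changes of -0.30 for KO1 and -0.48 for KO2 and THOC1-DT, its divergent lncRNA, of -0.49 for KO1 and -0.44 for KO2. ENSG00000272688, the lncRNA opposite MYL12A, had -1.15 for KO1 and -1.52 for KO2, below those of MYL12A. In the third place CBX3P2, a pseudogene, had -0.89 for KO1 and -0.53 for KO2, while SMCHD1 across 332 bases had -0.01 for KO1 and -0.12 for KO2. The values of THOC1 and its partner were thus the closest of the 3 pairs in both clones.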

How the data were processed

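Input mRNA of 3 lines of MEL624 cells (KO1, KO2 and control, 3 libraries each) was examined. The authors deposited one table of log2 TPM values for 15258 genes in 9 columns named after the input libraries. The tools were edgeR 3.12.1 and R 3.3.3, featureCounts, HISAT2 2.0.4, deepTools 3.0.2 and SAMtools 1.7, on build hg38, per the submitters' processing notes. What each did, which annotation and gene filter applied, and whether strand was counted was not given in the sources used here. TPM was scaled over the listed genes, and a small prior count had been added before the logarithm, so fold changes of genes with few reads depend on it.

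Whole reads were recovered for 100% of genes (tolerance 1e-05 reads), giving 7848089 to 11393206 reads per library and 84602764 in all. The depth limits what can be said of the lncRNAs and pseudogenes, and intervals from reads cover counting error only, since PCR copies were not marked. GENCODE 44 (hg38) gave positions for 15138 identifiers and none for 120, and RefSeq (GRCh38.p14) gave promoter windows.

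The fit was limma-trend (limma 3.58.1, R 4.3.3) on the deposited log2 values, with 1 mean per line (6 residual degrees of freedom). P-values were adjusted by Benjamini-Hochberg over the 14512 genes whose mean reached 1 TPM, and a two-sided adjusted p under 0.05 made a call. A fold change is on the log2 TPM scale, and ± beside it is its SE. It was tested on simulated data first. For single values an exact permutation test was used. Members, gene lists and tests were chosen with earlier results of these data known.

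Named members are the 8 lowest and 4 highest by the mean of both fold changes, the 5 most abundant, up to 6 higher and 6 lower of those called between the clones, those with a listed role, and the ends of the interval. Of each partner list up to 2 genes could be named, those with the largest change called the same way in both clones, else in 1. Some genes this rule names are not reported here. Names outside this rule were added after values were seen: THOC1-DT, CBX3P2 and ENSG00000272688 as divergent partners, CXADR, ANKRD30A and the POTE genes as relatives, MIB1 beyond the interval, and ANKRD20A5P with its neighbours. Alternatives were limma-voom on the recovered reads, log2(TPM + 1), a minimum of 5 TPM or none, median centring, a block for the replicate letter, a fit of only the lines compared, and leaving out single libraries.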

Additional observations from a re-analysis of the deposited data

Results flagged for a closer look

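The effects of the 2 clones, each set against control, were compared gene by gene as KO2 minus KO1 with limma-trend, and 19 of the named members had an adjusted p under 0.05. About as large a share of all tested genes passed, as given above. Values are log2 differences.

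Members lower in KO2 than in KO1 were TUBB6 (-0.25), NDC80 (-0.34), ANKRD12 (-0.35), MYL12B (-0.22) and the lncRNA ENSG00000273119 (-0.91). Members higher in KO2 were IMPA2 (0.65) and the lncRNA ENSG00000266401 (1.14). These 7 kept their calls under every alternative run. TYMS (-0.15) lost its call only after median centring. The lncRNA ENSG00000265257 (-0.16) lost it after median centring and with limma-voom, and the lncRNA ENSG00000267051 (-1.83) lost it without KO1 library A or KO1 library C.

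The other 9 lost their calls under 5 to 12 of their 15 or 16 alternatives, with the highest limma adjusted p between 0.0927 for DLGAP1-AS1 and 0.171 for USP14. Lower in KO2 were LINC01444 (-0.82), ARHGAP28 (-0.54), ROCK1 (-0.17), LPIN2 (-0.15), TWSG1 (-0.19) and USP14 (-0.14). Higher in KO2 were TYMSOS (0.67), GNAL (0.48) and DLGAP1-AS1 (0.33). In these 9 the call was lost in 4 to 8 of the 9 fits that left out 1 library.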

How the results depend on the processing

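The medians of the members kept their sign under every alternative. Signs of single genes near 0, such as SMCHD1 in KO1 at -0.01 ± 0.05 (SE), are not settled. The median of the members in KO1 against control was -0.52 with each library centred on its median and -0.53 with limma-voom, and -0.53 to -0.47 with 1 library left out, lowest without KO1 library A. In KO2 against control it was -0.47 with log2(TPM + 1), and -0.53 to -0.48 with 1 library left out. For KO2 minus KO1 it was -0.0234 with centring and -0.0417 with limma-voom, and -0.114 to -0.0496 with 1 library left out, nearest 0 without KO2 library A. The counts of members called lower against control stayed between 47 and 52 with 1 library left out, and those called higher were 1 or 2. Between the clones, members called lower in KO2 were 6 with centring, 9 with only the 2 lines compared and 8 to 12 with 1 library left out. Members called higher were 2 with only the 2 lines compared, 3 with the replicate block and 2 to 6 with 1 library left out. The count of called members lower fell by over 1.5 times to 9 without control library B or KO2 library A and to 8 without KO1 library A, B or C. Partners called lower in KO1 were 21 with centring, 33 with limma-voom and 7 to 15 with 1 library left out, in KO2 16 to 24, and between the clones 25 to 35. Partners called higher with 1 library left out were 23 to 33 in KO1, 17 to 22 in KO2 and 14 to 20 between the clones. The cause of these shifts was not tested. Replicate letters did not pair the libraries (correlations of same-letter deviations -0.0736 to 0.0371), and no other count moved by over 1.5 times under the block. Of the values of single named genes under an alternative, 176 lost and 22 gained a call. The depth leaves POTEC, CXADRP3, SNX19P3 and lncRNAs such as ENSG00000267051, ENSG00000273119 and ENSG00000266401 with few reads in the clones, so their fold changes are imprecise.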
